A study of Mus musculus with 16 samples.

Results

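The genes described here are 10 members of the Notch pathway, measured in the distal femur of ovariectomized mice: the receptors Notch1, Notch2, Notch3 and Notch4, the ligands Jag1, Dll1 and Dll4, and the target genes Hes1, Hey1 and Heyl. They were chosen by gene symbol in the platform annotation, which gave 20 probe sets of the 45101 on the array, and 18 of these 20 lay above the filter on low signals. The rule uses no measured value, but the genes were picked with earlier results of these data known, among them the estrogen difference of Notch3 in wild type and the split between replicate numbers. The wild-type estrogen differences of the members are therefore given as a description without a p-value. The adjusted p-values between replicate numbers say only which members passed in the fit over all probe sets and are no independent support. Each of 4 groups held 4 female C57BL/6 mice, with 1 Affymetrix array per mouse and no pooling. WT-E2-4hr mice were wild type and received estrogen 4 hours before the distal 5 mm of the left femur was taken, and WT-OVX mice were wild type and received vehicle. ERaKO-E2-4hr mice lacked estrogen receptor alpha in osteoclasts and received estrogen, and ERaKO-OVX mice had the same deletion and no estrogen; the series design text calls their treatment vehicle. All 16 mice had been ovariectomized, so no group had its own ovarian estrogen, and neither the labels nor the design text say which promoter drove the deletion, which estrogen was given or at what dose.

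Notch receptors are transmembrane proteins that meet ligands of the Jagged and Delta-like families on neighbouring cells. Ligand binding lets proteases cut the receptor, and its intracellular part then joins the DNA-binding protein Rbpj in the nucleus and switches on target genes, of which the Hes and Hey transcriptional repressors are the best known. In bone, Notch signals act in osteoblasts and osteoclasts, while Notch3 is best known from vascular smooth muscle cells and pericytes, and Notch4 and Dll4 from endothelium. The tissue here was whole bone with marrow, so fewer cells of a type and less RNA per cell cannot be told apart.

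No member passed the adjusted threshold in a comparison of the 4 groups. The lead Notch3 probe set was lower after estrogen in wild type, with no overlap between the 2 groups of mice, and the knockout groups overlapped. It was 1 of 18 tested probe sets, where 3.66% of all tested probe sets did not overlap. For the other Notch3 probe set the wild-type groups overlapped, at −0.57 ± 0.33. The genes were chosen with the Notch3 difference known. Between the replicate numbers, 1 probe set each of Hey1, Heyl and Notch4 passed as higher in the mice numbered 3 and 4 than in the mice numbered 1 and 2. These 3 of 18 tested probe sets are at the background, since 17.2% of all probe sets passed there. The Notch4 call was lost under 6 of 24 alternatives. The other tested Notch4 probe set stood at 0.41 ± 0.28 and did not pass. Another Notch4 probe set, under the filter, was lower in all 4 groups, from −0.82 to −0.006.

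Promoter sequence is shown for Notch3, which carries the estrogen difference, and for Notch4, which carries a difference between replicate numbers. The letters of the estrogen receptor motif were searched in both, as in every member gene with promoter sequence. Hey1 and Heyl also passed between replicate numbers but had no such sequence. The sequences are from RefSeq on build GRCm38.p6 and run from 250 bases before to 50 bases after the gene's start, and 7 of the 10 genes matched a window. Capitals mark the core estrogen receptor motif GGTCA or its reverse complement TGACC, the GC box GGGCGG or CCGCCC, and the Rbpj motif TGGGAA or TTCCCA, with both strands searched. The motifs did not overlap each other in these windows.
Notch3, chr17:32166841-32167140, minus strand: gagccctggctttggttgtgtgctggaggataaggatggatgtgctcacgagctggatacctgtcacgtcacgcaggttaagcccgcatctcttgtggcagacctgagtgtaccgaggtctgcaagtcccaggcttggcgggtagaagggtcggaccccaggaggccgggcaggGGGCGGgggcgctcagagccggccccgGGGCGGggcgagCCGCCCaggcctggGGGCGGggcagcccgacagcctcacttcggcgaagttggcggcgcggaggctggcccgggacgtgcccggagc
Notch4, chr17:34564045-34564344, plus strand: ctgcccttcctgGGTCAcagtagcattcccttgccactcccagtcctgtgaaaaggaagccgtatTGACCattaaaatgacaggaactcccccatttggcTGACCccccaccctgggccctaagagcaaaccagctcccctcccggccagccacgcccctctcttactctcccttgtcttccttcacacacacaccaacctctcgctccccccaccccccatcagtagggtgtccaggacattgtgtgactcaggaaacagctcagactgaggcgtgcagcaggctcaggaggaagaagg

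The Notch3 window held 4 GC boxes and 0 copies of the core estrogen receptor motif, while the Notch4 window held 3 copies of the core motif and 0 GC boxes. Of 32544 promoter windows of this length, 40.5% held the core estrogen receptor motif, 35.9% a GC box and 25.4% the Rbpj motif. The palindromic estrogen response element, the core motif followed by its reverse complement 3 bases on, occurred in 0.0707% of all windows and in 0 of the 8 windows of the members. Among the other members, Dll4 had 1 copy of the core motif, and Dll1 had 2 copies in 1 of its 2 windows. GC boxes were also in the windows of Notch1 (5), Notch2 (7) and Dll4 (2), with 0 in those of Jag1 and Dll1. The Rbpj motif was in 0 of the 8 windows, which are all of receptor and ligand genes. The target genes Hes1, Hey1 and Heyl had no window, so their promoters were not searched. These matches describe letters in a window of 300 bases and say nothing of binding.

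The values below are linear array signals, and log2 differences are on the scale log2(signal + 16) with their SE from limma, fitted over 31526 probe sets with a mean signal above 67.4. A probe set is a group of oligonucleotides designed for a gene's transcript. Where a gene has several, the lead probe set is the one of highest mean. Probe sets bind with different strength, so their signals do not rank genes or transcripts by level. The arrays had a 2% trimmed mean of 500 each and medians from 153 to 217. Tex2 was the only probe set to pass for estrogen averaged over genotypes, at 1.08 (adjusted p = 0.00229). As a check of the tissue, the osteoclast protease gene Ctsk averaged 6940 ± 3445 in WT-E2-4hr, 8729 ± 3408 in WT-OVX, 9629 ± 4349 in ERaKO-E2-4hr and 7440 ± 3098 in ERaKO-OVX (SD, n = 4 each). Esr1, the deleted gene, averaged 540 ± 149 in ERaKO-E2-4hr against 507 ± 106 in WT-E2-4hr, and 637 ± 60.9 in ERaKO-OVX against 945 ± 138 in WT-OVX. Other bone cells keep Esr1, and its probe set may lie outside the deleted part, so this does not check the deletion.

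Among the receptors, only the lead probe set of Notch3 had groups that did not overlap. Its lead probe set (1421965_s_at, Entrez gene 18131) had signals of 1184, 989, 750 and 896 in the WT-E2-4hr mice, against 1497, 1671, 1672 and 1761 in the WT-OVX mice. Every wild-type mouse given estrogen lay below every wild-type mouse given vehicle. In the knockout it had 1306, 1217, 1324 and 1257 in the ERaKO-E2-4hr mice, against 1503, 1385, 1587 and 1189 in the ERaKO-OVX mice, and these groups overlapped. The ERaKO-E2-4hr mice all lay above the WT-E2-4hr mice, while ERaKO-OVX mice overlapped with WT-OVX mice.

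In order of mean Notch3 signal, WT-OVX was highest at 1650 ± 111, then ERaKO-OVX at 1416 ± 172, ERaKO-E2-4hr at 1276 ± 48.5 and WT-E2-4hr at 955 ± 182 (SD, n = 4 each). Neighbours in this order overlapped except the last pair. The log2 difference of Notch3, estrogen minus vehicle, was −0.80 ± 0.15 in wild type, which is given without a test because it was known when the genes were chosen. In the knockout the Notch3 difference was −0.14 ± 0.15 (limma adjusted p = 1.0). The knockout response exceeded the wild-type response by 0.66 ± 0.21 (limma adjusted p = 0.837), and this difference uses the same wild-type arrays. Knockout minus wild type was 0.43 ± 0.15 for Notch3 after estrogen (adjusted p = 0.895) and −0.22 ± 0.15 under vehicle (adjusted p = 0.985). None of these Notch3 differences passed.

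The Notch3 differences are also given by replicate numbers, with 2 mice of each group in a set, and the gap between the sets was not tested. Among replicates 3 and 4 the wild-type difference was −1.05 and the knockout difference −0.09. Among replicates 1 and 2 they were −0.54 and −0.19. The knockout response exceeded the wild-type response by 0.96 in the first of these sets and by 0.35 in the other, and knockout minus wild type after estrogen was 0.64 and 0.22. Each of these differences of the lead probe set had the same sign in both sets. The suffix of the lead probe set marks probes that can match more than 1 transcript. The other Notch3 probe set, 1421964_at, had 159, 59.4, 192 and 219 in the WT-E2-4hr mice, against 141, 266, 248 and 255 in the WT-OVX mice, and here the groups overlapped, with the difference at −0.57 ± 0.33. In the knockout it stood at −0.21 ± 0.33 (adjusted p = 1.0), with the knockout response higher than the wild-type response by 0.36 ± 0.46 (adjusted p = 0.927). For this probe set the wild-type difference was −0.27 among replicates 3 and 4 and −0.87 among replicates 1 and 2, with the same sign. Knockout minus wild type under vehicle also kept its sign, at −0.18 and −0.13. The signs of other differences changed between the sets. Knockout minus wild type after estrogen was −0.34 among replicates 3 and 4 and 0.76 among replicates 1 and 2, and the knockout difference was −0.43 and 0.01.

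**Figure D1:**
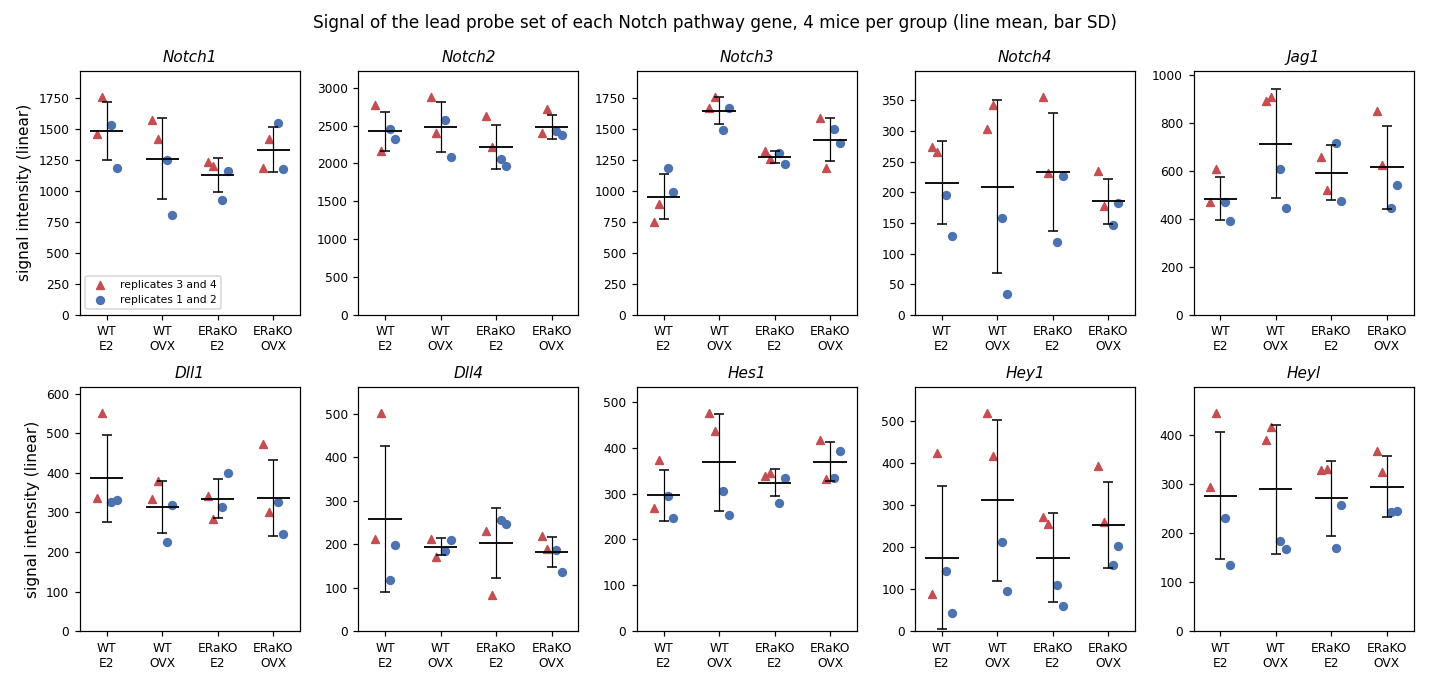
Linear array signal (vertical axis, from 0) of the lead probe set of each of the 10 genes in the 4 groups, with each mouse as a point, the group mean as a line and the SD as a bar (n = 4); triangles are replicates 3 and 4 and circles replicates 1 and 2. The WT-E2-4hr mice lie below all WT-OVX mice for Notch3, and for Heyl the triangles lie above the circles in every group.

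Notch3 is a gene of mural cells, the smooth muscle cells and pericytes around vessels, so the markers of these cells were set beside it. Of the 14 mural cell and vascular smooth muscle genes listed, 11 were above the filter. Of these, 10 were lower and 1 higher after estrogen in wild type, with a median log2 difference of −0.41 against −0.02 over all probe sets. By the adjusted test 0 of the 11 passed, and 3 were lower at an unadjusted p under 0.05. Of all 31526 tested probe sets, 2177 (6.91%) had such a p in this comparison, 1261 of them lower. The summed signal of all 14 ran from 9709 to 13693 in WT-E2-4hr mice and from 12873 to 21559 in WT-OVX mice, which overlap, and 0 of the 14 markers were at 0. In the knockout 6 of the 11 were higher and 5 lower, with a median of 0.21, and the summed signal ran from 9401 to 26338 in ERaKO-E2-4hr mice and from 10905 to 13213 in ERaKO-OVX mice. The skeletal muscle genes were also lower after estrogen in wild type in 15 of 16 cases, with a median of −0.97. In the knockout 16 of 16 were higher, with a median of 1.13. In both genotypes 0 of them passed and 0 had an unadjusted p under 0.05. Their summed signal ran from 10088 to 217182 in WT-E2-4hr mice and from 18367 to 515364 in WT-OVX mice. It ran from 4284 to 742720 in ERaKO-E2-4hr mice and from 8428 to 165690 in ERaKO-OVX mice, so both pairs of groups overlapped. Other lists were lower in wild type as well, with adipocyte at 7 of 7 (median −0.80), cartilage at 13 of 13 (−0.65), B lymphocyte at 10 of 10 (−0.72) and T lymphocyte at 8 of 9 (−0.51), and 0 of these genes passed, with 3, 1, 2 and 3 lower at an unadjusted p under 0.05. The remaining lists were mixed or higher in wild type. Medians were −0.05 for endothelium (7 higher, 9 lower), −0.05 for osteoclast (6, 7), 0.0002 for osteoblast and osteocyte (5, 5) and −0.14 for erythroid (3, 4). Neutrophil genes were higher in 8 of 10 cases (0.27), 4 of them at an unadjusted p under 0.05. In the knockout 5 of 7 adipocyte genes were higher (median 0.21), while 11 of 13 cartilage (−0.62), 8 of 10 B lymphocyte (−0.62) and 7 of 9 T lymphocyte genes (−0.24) were lower. Knockout medians were 0.06 for endothelium, 0.17 for osteoclast, 0.11 for osteoblast and osteocyte, −0.34 for erythroid and 0.18 for neutrophil. Without the 3 arrays of highest spike-in signal the wild-type Notch3 difference was −0.81. The part of any of these cell types in the Notch3 difference was not tested.

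Notch1 and Notch2 are the receptors most often studied in bone, and Notch2 is known to promote osteoclast formation. The lead Notch1 probe set had 1532, 1189, 1458 and 1761 in the WT-E2-4hr mice, against 1252, 808, 1573 and 1419 in the WT-OVX mice. It had 929, 1159, 1232 and 1199 in the ERaKO-E2-4hr mice, against 1552, 1177, 1189 and 1418 in the ERaKO-OVX mice. The groups overlapped in each pair compared, with single mice at 808 and 929 below the rest. Its mean was 1485 ± 235 in WT-E2-4hr against 1263 ± 330 in WT-OVX, and 1130 ± 137 in ERaKO-E2-4hr against 1334 ± 183 in ERaKO-OVX. Its estrogen difference was 0.26 ± 0.19 in wild type and −0.24 ± 0.19 in the knockout (adjusted p = 1.0), and the responses differed by −0.49 ± 0.27 (adjusted p = 0.85). The other Notch1 probe set gave 0.17 ± 0.23 and −0.19 ± 0.23, and the 2 probe sets, read on the same arrays, had the same signs. By replicate numbers, its wild-type difference was −0.20 among replicates 3 and 4 and 0.55 among replicates 1 and 2. The lead probe set gave 0.10 and 0.42 there.

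Notch2 had 2452, 2317, 2770 and 2166 in the WT-E2-4hr mice, against 2576, 2084, 2878 and 2403 in the WT-OVX mice. In the knockout it had 2062, 1964, 2627 and 2219 in the ERaKO-E2-4hr mice, against 2425, 2371, 2406 and 2725 in the ERaKO-OVX mice. The groups overlapped throughout. Its mean was 2426 ± 257 in WT-E2-4hr against 2485 ± 332 in WT-OVX, and 2218 ± 292 in ERaKO-E2-4hr against 2482 ± 164 in ERaKO-OVX. Its estrogen difference was −0.03 ± 0.14 in wild type and −0.17 ± 0.14 in the knockout (adjusted p = 1.0). With an SE of 0.14, this was the member measured with the smallest error. The other Notch2 probe set stood at 0.33 ± 0.33 and −0.25 ± 0.33.

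Notch4, the receptor of endothelial cells, is given mouse by mouse with the replicate sets below, and its lead probe set (1449146_at) averaged 216 ± 67.7 in WT-E2-4hr against 209 ± 142 in WT-OVX, and 233 ± 97.1 in ERaKO-E2-4hr against 185 ± 36.9 in ERaKO-OVX. The estrogen difference was 0.34 ± 0.49 in wild type and 0.24 ± 0.49 in the knockout (adjusted p = 1.0). Its signal was low and spread widely within the groups. Of its other probe sets, 1456263_at gave 0.54 ± 0.41 and 0.58 ± 0.41. Probe set 1436901_at lay under the filter and gave −0.13 ± 0.36 and 0.46 ± 0.36 in the fit without a filter.

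Of the ligands, Jag1 is the Jagged ligand that osteoblasts display to neighbouring cells. Its lead probe set, 1434070_at, had 469, 391, 470 and 606 in the WT-E2-4hr mice, against 609, 445, 892 and 907 in the WT-OVX mice. The lowest vehicle mouse lay among the estrogen mice, so the groups overlapped, and the difference was −0.50 ± 0.24. In the knockout the lead Jag1 probe set had 717, 474, 657 and 519 in the ERaKO-E2-4hr mice, against 443, 541, 847 and 623 in the ERaKO-OVX mice, and it averaged 592 ± 114 in ERaKO-E2-4hr against 613 ± 172 in ERaKO-OVX, a difference of −0.03 ± 0.24 (adjusted p = 1.0). The 3 Jag1 probe sets disagreed in wild type, with −0.17 ± 0.38 for 1421106_at and 0.82 ± 0.48 for 1421105_at, which has low signals. Probe set 1421105_at had 130, 132, 191 and 169 in the ERaKO-OVX mice, against 61.6, 9.68, 168 and 59.0 in the WT-OVX mice. That genotype difference under vehicle was 1.23 ± 0.48 (adjusted p = 0.985), it rests on signals near the low end, and the other Jag1 probe sets stood at −0.19 ± 0.24 and 0.02 ± 0.38.

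Neither of the Delta-like ligands passed in a comparison of groups. Dll1 had 327, 333, 336 and 551 in the WT-E2-4hr mice, against 224, 319, 333 and 380 in the WT-OVX mice. It had 315, 400, 342 and 284 in the ERaKO-E2-4hr mice, against 325, 247, 473 and 301 in the ERaKO-OVX mice. A single mouse, at 551, lay above the other mice of the WT-E2-4hr group, and the groups overlapped. Dll1 averaged 387 ± 110 in WT-E2-4hr against 314 ± 65.2 in WT-OVX, and 335 ± 49.1 in ERaKO-E2-4hr against 336 ± 96.7 in ERaKO-OVX. Its differences were 0.28 ± 0.23 and 0.02 ± 0.23 (adjusted p = 1.0 in the knockout). Dll4, the ligand of arterial and sprouting endothelium, had 117, 199, 211 and 501 in the WT-E2-4hr mice, against 185, 209, 211 and 171 in the WT-OVX mice. It had 255, 246, 229 and 82.3 in the ERaKO-E2-4hr mice, against 187, 135, 219 and 189 in the ERaKO-OVX mice. The groups overlapped, and for this lead probe set the mice given estrogen spread more widely, with single mice at 501 and 82.3. It averaged 257 ± 168 in WT-E2-4hr against 194 ± 19.3 in WT-OVX, and 203 ± 81.1 in ERaKO-E2-4hr against 183 ± 34.7 in ERaKO-OVX. For the other Dll4 probe set the SD was 144 in WT-E2-4hr against 107 in WT-OVX, but 21.9 in ERaKO-E2-4hr against 121 in ERaKO-OVX. The differences of Dll4 were 0.20 ± 0.37 and 0.05 ± 0.37, and its other probe set, at −0.31 ± 0.71 and −0.17 ± 0.71, was too variable to give a direction.

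The target genes are read as the output of the pathway, and none of their estrogen differences passed. Hes1, which encodes a repressor of the Hes family, had 295, 246, 268 and 374 in the WT-E2-4hr mice, against 307, 253, 475 and 437 in the WT-OVX mice. It had 279, 334, 338 and 345 in the ERaKO-E2-4hr mice, against 335, 393, 418 and 333 in the ERaKO-OVX mice. The groups overlapped in both genotypes. Hes1 averaged 296 ± 55.7 in WT-E2-4hr against 368 ± 105 in WT-OVX, and 324 ± 30.02 in ERaKO-E2-4hr against 369 ± 42.6 in ERaKO-OVX. Its difference was −0.27 ± 0.21 in wild type and −0.18 ± 0.21 in the knockout (adjusted p = 1.0). Hey1, which encodes a repressor of the Hey family, averaged 175 ± 170 in WT-E2-4hr against 311 ± 191 in WT-OVX, and 174 ± 105 in ERaKO-E2-4hr against 253 ± 102 in ERaKO-OVX. Its differences, −0.94 ± 0.59 and −0.63 ± 0.59, have large errors because the mice within each group were far apart. Part of that spread lay between the replicate numbers, by 0.79 to 1.58 within the groups, and the fit of these differences holds no term for them. The lead probe set of Heyl, a further repressor gene of the Hey family, gave −0.07 ± 0.35 and −0.14 ± 0.35, with group means from 272 to 296. The Heyl probe set 1438886_at differed by −0.45 ± 0.34 in wild type, by −0.58 ± 0.34 in the knockout, and by −0.51 ± 0.24 over both genotypes (adjusted p = 0.981).

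**Figure D2:**
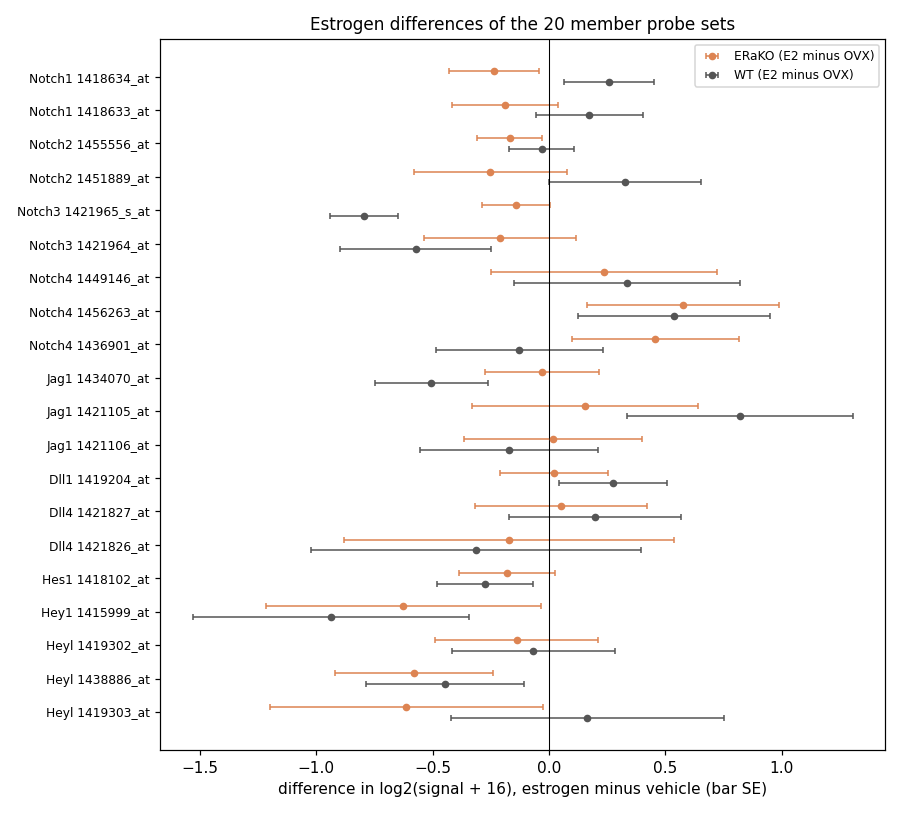
Difference in log2(signal + 16), estrogen minus vehicle, of each of the 20 probe sets (rows), with orange points for ERaKO and grey points for WT and bars of 1 SE from limma. The lead Notch3 probe set stands at −0.80 in WT and −0.14 in ERaKO, and in ERaKO the differences of the tested probe sets run from −0.63 to 0.58.

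Counted over the 18 tested probe sets, 8 were higher and 10 lower after estrogen in wild type, with a median of −0.05 against −0.02 over all probe sets tested. In the knockout 6 were higher and 12 lower, with a median of −0.15 against −0.01. Knockout minus wild type gave 10 higher and 8 lower both under vehicle and after estrogen, with medians of 0.01 and 0.06 against 0.01 and 0.02 over all probe sets. No member passed the adjusted threshold in any comparison of groups by limma, where the share of all probe sets that passed was 0% for estrogen in each genotype, for genotype under each treatment and for the difference between the responses. Averaged over genotypes it was 0.00317%, and Notch3 stood at −0.47 ± 0.10, given without a p-value because it contains the known wild-type difference. At an unadjusted p under 0.05 there was 1 member, the lead Notch3 probe set, for estrogen in wild type, against 6.91% of all probe sets; nothing is read from this count, since the comparison was known when the genes were chosen. There were 0 members for estrogen in the knockout, against 4.03% of all probe sets, and 1 for genotype under vehicle, the Jag1 probe set 1421105_at, against 3.38%. There was 1 member for genotype after estrogen against 5.3%, and 1 for the difference between the responses against 5.89%, both the lead Notch3 probe set. Averaged over genotypes there were 2, Notch3 and the Heyl probe set 1438886_at, against 5.04%. The counts that include Notch3 use the wild-type arrays whose values were known, and every count lies near the background share of 18 probe sets.

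The groups did not overlap for 1 of the 18 tested probe sets in wild type, where 3.66% of all tested probe sets did not overlap. The count was 0 for estrogen in the knockout against 3.88%, 0 for genotype under vehicle against 3.52%, and 1 for genotype after estrogen against 2.15%. Both are the lead Notch3 probe set. These comparisons share groups with each other, so they are not independent.

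The mice numbered 3 and 4 were set against those numbered 1 and 2 over all groups, a split that was known when the genes were chosen. Every group held 2 mice of each set, and nothing in the labels says what the numbers stand for. Of the 18 tested member probe sets, 17 were higher in replicates 3 and 4, with a median of 0.38 against 0.07 over all probe sets. By limma with group in the fit, 3 passed, all higher, where 17.2% of all probe sets passed, and 5 had an unadjusted p under 0.05, against 31.7%. The number of members called is near that background.

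In WT-E2-4hr, Hey1 had 89.2 and 423 in replicates 3 and 4, against 143 and 44.1 in replicates 1 and 2. In WT-OVX it had 518 and 415 in replicates 3 and 4, against 213 and 96.3 in replicates 1 and 2. In the knockout it had 272 and 255 against 110 and 60.5 in ERaKO-E2-4hr, and 393 and 260 against 158 and 202 in ERaKO-OVX. Replicates 3 and 4 lay above replicates 1 and 2 in 3 of the 4 groups, and in WT-E2-4hr replicate 3 fell between the others. The log2 difference of Hey1 was 1.25 ± 0.28 (adjusted p = 0.00706), and within the groups it ran from 0.79 to 1.58.

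Heyl was the member whose sets did not overlap. Its lead probe set, 1419302_at, had a lowest, median and highest signal of 295, 350 and 446 in replicates 3 and 4, against 136, 207 and 258 in replicates 1 and 2. By mouse, from replicate 1 to replicate 4, Heyl had 230, 136, 295 and 446 in WT-E2-4hr, 183, 169, 391 and 416 in WT-OVX, 169, 258, 329 and 331 in ERaKO-E2-4hr, and 243, 246, 369 and 325 in ERaKO-OVX. The log2 difference was 0.80 ± 0.15 (adjusted p = 0.00263), from 0.48 to 1.13 within the groups. Over all tested probe sets the sets did not overlap for 3.05%, and Heyl was 1 of the 18 members. The other tested Heyl probe set gave 0.43 ± 0.22 (adjusted p = 0.194), and 1419303_at, under the filter, gave 1.06 ± 0.33 in the fit without a filter.

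Notch4 had a lowest, median and highest signal of 177, 269 and 356 in replicates 3 and 4, against 33.6, 152 and 226 in replicates 1 and 2, for its lead probe set. By mouse, from replicate 1 to replicate 4, Notch4 had 195, 129, 273 and 266 in WT-E2-4hr, 157, 33.6, 304 and 342 in WT-OVX, 118, 226, 356 and 232 in ERaKO-E2-4hr, and 146, 182, 235 and 177 in ERaKO-OVX. The sets overlapped, with a difference of 0.91 ± 0.26 (adjusted p = 0.0266), and the largest gap, 1.87, lay in WT-OVX, where replicate 2 had the signal of 33.6. Without that mouse the difference was 0.65 (adjusted p = 0.0223). The Notch4 call was lost without WT-OVX replicate 3 (0.83, adjusted p = 0.0647) or 4 (0.80, 0.0649), WT-E2-4hr replicate 2 (0.87, 0.0507), or ERaKO-E2-4hr replicate 1 (0.84, 0.052) or 3 (0.87, 0.0544), and without the 3 arrays of highest spike-in signal (0.48, 0.0799). The other Notch4 probe sets did not move alike, at 0.41 ± 0.28 (adjusted p = 0.336) and, under the filter, −0.32 ± 0.25.

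Jag1 came close to the threshold between the sets, with a lead probe set at 0.41 ± 0.14 (adjusted p = 0.0559) and 1421106_at at 0.64 ± 0.23 (adjusted p = 0.0645). The lead Jag1 signal had a lowest, median and highest value of 470, 640 and 907 in replicates 3 and 4, against 391, 471 and 717 in replicates 1 and 2. Hes1 stood at 0.27 ± 0.13 (adjusted p = 0.165) and was higher in replicates 3 and 4 in all 4 groups. Notch1 at 0.24 ± 0.12, Notch2 at 0.14 ± 0.09, Dll1 at 0.24 ± 0.15 and Dll4 at 0.13 ± 0.26 did not pass. The lead Notch3 probe set was the only tested one on the lower side, at −0.08 ± 0.10 (adjusted p = 0.635), while the other Notch3 probe set stood at 0.36 ± 0.21 (adjusted p = 0.267).

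**Figure D3:**
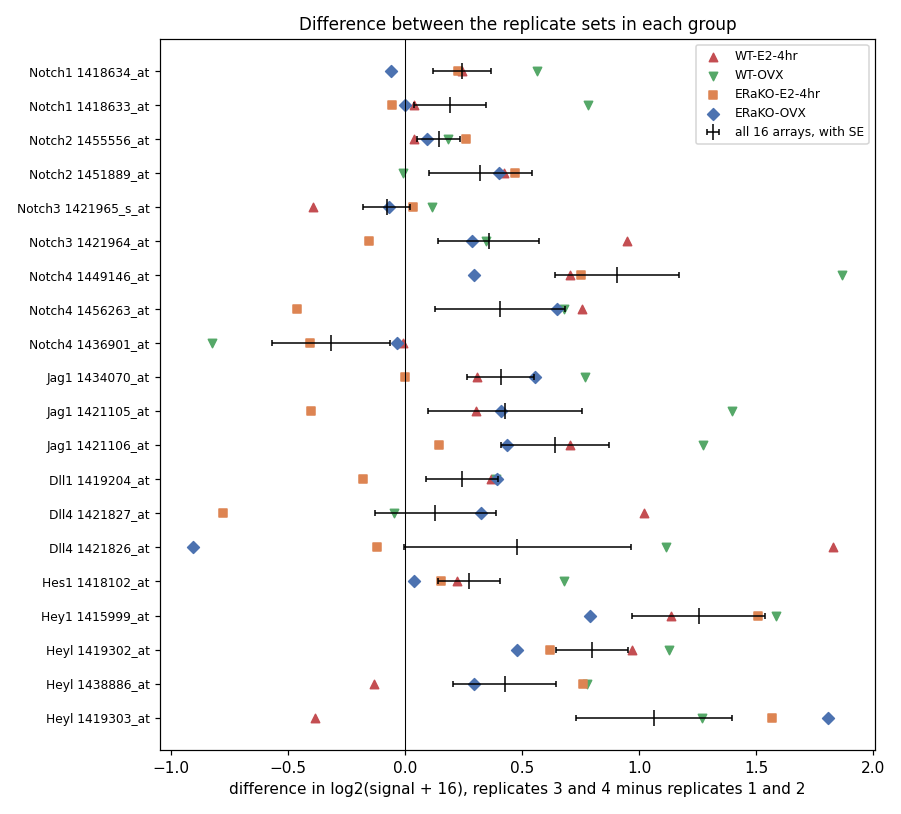
Difference in log2(signal + 16), replicates 3 and 4 minus replicates 1 and 2, of each of the 20 probe sets (rows), with a symbol for each group and a black bar for the estimate over all 16 arrays with its SE. All 4 groups lie above 0 for Hey1, and for the lead probe sets of Heyl and Notch4. The same holds for Hes1, the lead probe sets of Notch2 and Jag1, and the Jag1 probe set 1421106_at. The groups fall on both sides of 0 for Notch3 and Dll4, among others.

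Signs of array and RNA quality moved with the replicate sets. The mean bacterial spike-in signal ran from 9350 to 11293 in replicates 3 and 4 and from 11295 to 59091 in replicates 1 and 2. The 3 arrays of highest spike-in signal and of highest Actb 3'/5' ratio, 2.07 to 3.53, were all in replicates 1 and 2. Without them Hey1 stood at 1.01 (adjusted p = 0.0485), Heyl at 0.61 (adjusted p = 0.0198) and Notch4 at 0.48 (adjusted p = 0.0799).

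Markers of several cell types moved with the replicate sets too. All 16 skeletal muscle genes were lower in replicates 3 and 4 and passed, with a median of −4.04. Their summed signal ran from 4284 to 39520 in replicates 3 and 4 and from 91416 to 742720 in replicates 1 and 2. Of 16 endothelial genes 13 were higher, 5 passing, with 1 passing as lower, and their summed signal ran from 9582 to 11417 in replicates 3 and 4 against 8642 to 11063 in replicates 1 and 2. Of the 11 mural cell genes above the filter 9 were lower and 4 passed. Of 13 osteoclast genes 12 were higher and 8 passed. Of 10 tested osteoblast and osteocyte genes 8 were higher, with 5 passing and 1 passing as lower. All 7 tested adipocyte genes were lower and 5 passed. Of the remaining lists, cartilage had 12 of 13 higher with 1 passing, B lymphocyte 9 of 10 lower with 1 passing, erythroid 7 of 7 lower with 1 passing, neutrophil 7 of 10 lower with 5 passing and T lymphocyte 5 of 9 lower with 0 passing. Of all these markers 0 were at 0, and the part of these cell types in the differences of Hey1, Heyl and Notch4 was not tested.

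The rest of the pathway was read from a list of 49 other genes, of which 46 had a probe set and 41 were tested. For estrogen in wild type 19 were higher and 22 lower, with a median of −0.04, and 0 passed by limma, with 1 higher and 1 lower at an unadjusted p under 0.05. The smallest p values belonged to Numb, an inhibitor of Notch, at 0.57 ± 0.21 (adjusted p = 0.592), to its relative Numbl at −1.03 ± 0.47 (adjusted p = 0.71), and to Psen2, a catalytic subunit of the protease that releases the intracellular part, at 0.46 ± 0.22 (adjusted p = 0.727). In the knockout 23 were higher and 18 lower, and 0 passed, with 3 lower at an unadjusted p under 0.05. Dtx3l, of the Deltex family of ubiquitin ligases, stood at −0.56 ± 0.13, the protease subunit gene Aph1b at −0.42 ± 0.17 and the Hes family gene Hes6 at −0.42 ± 0.18 (adjusted p = 1.0 for each).

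Knockout minus wild type gave 0 adjusted calls in the list as well, with 1 higher under vehicle, and 1 higher and 3 lower after estrogen, at an unadjusted p under 0.05. Under vehicle 17 were higher and 24 lower, with Dtx3l at 0.45 ± 0.13, the ligand gene Jag2 at −0.88 ± 0.49 and the ligand gene Dll3 at −0.94 ± 0.53 (adjusted p = 0.985 for each). After estrogen 19 were higher and 22 lower, with Numbl at 1.49 ± 0.47 (adjusted p = 0.895), Numb at −0.58 ± 0.21 and Aph1b at −0.45 ± 0.17 (adjusted p = 0.92 for both). For the difference between the responses 23 were positive and 18 negative and 0 passed, 3 of the negative ones having an unadjusted p under 0.05, with Dtx3l at −0.60 ± 0.19, Numb at −0.82 ± 0.30 and Hes6 at −0.64 ± 0.25 (adjusted p = 0.837 for each). Averaged over genotypes 21 were higher and 20 lower and 0 passed, 1 lower one having an unadjusted p under 0.05, with Dtx3l at −0.25 ± 0.09 (adjusted p = 0.873), Dtx3 at 0.23 ± 0.11 (adjusted p = 0.986) and Aph1b at −0.20 ± 0.12 (adjusted p = 1.0).

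Between the replicate sets 25 of the 41 other genes were higher in replicates 3 and 4 and 16 lower, and 6 passed, 1 higher and 5 lower. This share of the 41 is not above the 17.2% of all probe sets that passed, and the genes are named as values. Neurl1a, a ubiquitin ligase that acts on Notch ligands, stood at −0.89 ± 0.20 (adjusted p = 0.00764). Dtx4, of the Deltex family, stood at 0.39 ± 0.10 (adjusted p = 0.0106), and Dtx1 of the same family at −0.60 ± 0.15 (adjusted p = 0.0135). The protease subunit gene Aph1a (−0.85), the cofactor gene Snw1 (−0.35) and the Deltex gene Dtx2 (−0.51) also passed as lower.

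The genes whose pattern was most like that of Notch3 were found by Pearson correlation of log2 values over the 16 arrays, after the mean of each replicate set was taken off. The 5 highest of 14256 genes, given as a description, were Gnai1, a G protein subunit gene (0.90), Insig1, a regulator of cholesterol synthesis (0.89), Pdzd4 (0.89), the receptor phosphatase gene Ptprd (0.88) and the chloride transporter gene Clcn4 (0.88). The arrays of 1 group share their treatment, so this likeness includes the estrogen difference itself. In wild type these genes differed by −1.08, −0.69, −0.77, −0.90 and −0.58 after estrogen, and in the knockout by −0.39, −0.19, −0.11, 0.04 and −0.04.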

How the data were processed

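RNA from 16 femurs was hybridized to 1 array each, per the labels' protocols. What the authors deposited is a linear intensity for each probe set, computed in GCOS according to the submitters' processing notes, and its version and background step are not stated there. They were used as deposited, since the 2% trimmed mean was 500 on each array.

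Of 45101 probe sets, 64 controls were left out. The platform annotation named 1 gene for 34958 probe sets, several for 932 and none for 9211, and symbols were updated by Entrez identifier, which matched 34754. Groups follow the sample titles. Signals were transformed as log2(signal + 16), and probe sets below the 30th percentile of the mean were left out, so 31526 were tested. Differences of low probe sets come out too small on this scale. A linear model with 1 mean per group was fitted in limma 3.58.1 (R 4.3.3) with a variance trend and 12 residual degrees of freedom, and a term for the replicate set (3 and 4 against 1 and 2) was added for that comparison. P-values are two-sided, adjusted by the Benjamini-Hochberg method over all tested probe sets, at a threshold of 0.05. The fit was tested on simulated data. Precision is limited by the number of arrays, and mice of a group are taken as separate animals.

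The members, gene lists and tests were chosen with earlier results of these data known. All 20 member probe sets were named. Of the other pathway genes, the 3 of smallest unadjusted p were named in each comparison, and for the replicate sets Aph1a, Snw1 and Dtx2 were added after their values were seen, as was Tex2. Genes like Notch3 were the 5 of highest Pearson correlation. Alternatives covered normalization, pseudocount, filter, probe sets per gene, replicate terms, array weights and left-out arrays.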

Additional observations from a re-analysis of the deposited data

Results flagged for a closer look

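In groups of 4 mice, the highest or lowest mouse was set apart from the others by Dixon's criterion on log2 values in 6 of the 80 groups examined (20 probe sets in 4 groups), where chance gives about 5% of groups. Dll1 had 551 in WT-E2-4hr replicate 4, against 327 to 336 in the other mice of that group. The lead Dll4 probe set had 82.3 in ERaKO-E2-4hr replicate 4, against 229 to 255 in the others, and the other Dll4 probe set had 19.0 in WT-OVX replicate 1, against 192 to 267. The Notch3 probe set 1421964_at had 141 in WT-OVX replicate 1, against 248 to 266. The lead Notch2 probe set had 2725 in ERaKO-OVX replicate 4, against 2371 to 2425. Hes1 had 279 in ERaKO-E2-4hr replicate 1, against 334 to 345.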

How the results depend on the processing

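Under the group comparisons the number of members that passed was 0 in every alternative run, while the number of all probe sets that passed ran from 0 to 10. For estrogen in wild type, 3 probe sets passed once a replicate set term was added and 1 with array quality weights, against 0. For estrogen in the knockout, 2 passed with the set term, 1 with weights and 1 without the 3 arrays of highest bacterial spike-in signal (WT-OVX replicate 2, WT-E2-4hr replicate 2 and ERaKO-E2-4hr replicate 1). Leaving out single mice gave 0 to 1 there, and 0 to 1 for genotype after estrogen. Averaged over genotypes, 2 passed with 1 probe set per gene, 2 with the set term, 10 with weights and 3 without the spike-in arrays, against 1. Between the replicate sets 5413 probe sets passed, 2285 with 1 probe set per gene, 2860 without the spike-in arrays, and 3462 to 5635 without single mice, and the cause was not tested beyond the smaller number of features or arrays. Member calls there were 2 to 4 without single mice. Hey1 and the lead Heyl probe set kept their calls under all 24 alternatives run, while the Notch4 call ended under 6. The lead Jag1 probe set passed under 5, and 1421106_at under 2.

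The replicate numbers were not taken to pair the mice. Deviations of same-numbered mice correlated at 0.0947 to 0.447 (median 0.234), against a median of 0.295 for the other number of the same set. Between the sets the median was −0.258. Of 16 arrays, 5 correlated best with their own number. The main fit of the group comparisons holds no term for the sets. With the replicate block 2 probe sets passed for estrogen averaged over genotypes, and no member's call changed. For the replicate sets no such block could be fitted, because the numbers make up the sets. The 3 spike-in arrays also had Actb 3'/5' ratios of 2.07 to 3.53, above those of all other arrays. With 4 arrays a group, the precision of low signals such as Notch4 and Hey1 was limited.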
